A study of Mus musculus with 2 samples.

Results

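The ribosomal protein genes were described in single-cell RNA-seq of fetal bone marrow. The members were all symbols in both count tables that are Rps or Rpl followed by a number, together with Rplp0, Rplp1, Rplp2 and Rpsa, without the Rps6k kinases and without symbols that carry -ps. This gave 89 of 22652 genes. They comprise 37 symbols of the small and 51 of the large subunit, and Rps19bp1, which takes its name from binding Rps19 and is no ribosomal protein. The 37 include Rps12l1, Rps3a2, Rps3a3 and Rps4y2, which are annotated as processed pseudogenes, the last as a transcribed one. All 89 had UMIs in each library, and 85 had at least 200 UMIs over both libraries. The other members were Rpl3l with 2 UMIs in the wild-type library and 4 in the mutant library, Rps12l1 with 9 and 11, Rps12l2 with 9 and 5, and Rps3a2 with 50 and 112.

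Each of the 2 libraries holds lineage-depleted cells of crushed and collagenase-digested femoral marrow of embryos at E18.5, captured with the BD Rhapsody whole-transcriptome kit. Per the study's methods, wild-type marrow was taken from C57BL/6 mice, whereas conditional mutants were kept by interbreeding on a mainly C57BL/6 background. Depletion removed cells with Ter119, Gr-1, B220 or CD3e. One library is labelled WT and the other Bmx-CreER Wls. In the latter, Bmx-CreERT2, a tamoxifen-induced recombinase driven in arterial endothelial cells (ECs), deletes floxed Wls (Wntless), which cells need to secrete Wnt ligands; tamoxifen was given to the pregnant dams. Neither the litter nor a tamoxifen treatment is named for the wild-type embryos. With 1 library per genotype, genotype and library cannot be told apart, no test was possible, and all intervals below are 95% intervals that cover counting error only.

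The wild-type library held 5998 barcodes and 22708005 UMIs, of which 5736 cells passed the filters, with a median of 3128 UMIs. The Bmx-CreER Wls library held 6825 barcodes and 24704991 UMIs, with 6620 cells passing and a median of 3067 UMIs. The tables share 49 barcodes. Mitochondrial genes took 4.96% of the wild-type UMIs and 4.23% of the mutant UMIs. Wls itself was at 42.2 UMIs per 1000000 (CPM) in wild-type EC-like cells (33.6 to 52.2, 84 UMIs) and at 23.0 CPM in mutant EC-like cells (16.6 to 31.1, 42 UMIs), against 135 and 112 CPM over all cells. Whether the counted part of the transcript lies in the deleted part is not stated in the sources used here, so these values do not check the label.

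The cells of both libraries were clustered together without the members, which gave 16 clusters. Of these, 9 were named from marker lists with names ending in "-like", and the other 7 are called by their leading gene. The leading genes of the Mpo-led cluster, among them Mpo, Prtn3 and Myb, are those of haematopoietic cells. In it 6 of 8 markers of haematopoietic stem and progenitor cells (HSPCs) were high. Its 10 leading genes, however, held 2 markers of neutrophils or monocytes (Mpo and Prtn3) and 1 of HSPCs (Myb), so it was given no name. Also among the 10 were Hdc, a mast cell or basophil marker, and Gata1, an erythroid marker. These names are not the authors'.

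Ribosomes are built from a small and a large subunit, each an assembly of ribosomal RNA and many small proteins that are needed in near-equal amounts. The messages of these proteins are among the most abundant of a growing cell and carry a pyrimidine-rich start, the 5′ terminal oligopyrimidine (TOP) motif, through which their translation is coupled to nutrients and growth. Haematopoiesis is sensitive to loss of 1 copy of several of them, which causes Diamond-Blackfan anaemia, a failure of red cell production.

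To show what the gene starts look like, windows of 15 bases on each side of the RefSeq transcription start (GRCm38.p6) were read for the 64 members that have a promoter entry. The letters CTTTC are a short pyrimidine run chosen here after the data had been seen. They stood on the sense strand in a window of 17 of the 64 members (26.6%) and of 1286 of all 27025 genes (4.76%). The reverse complement GAAAG stood in a window of 3 of the 64 members (4.69%) and of 1139 of 27025 genes (4.21%). Some members, such as Rpl35a and Rps19, have several windows and so several places for a match. A match is a description of letters and not a mapped TOP start. Of the 7 members described below as past 1.5-fold between the libraries, 3 have a promoter entry and are shown: Rpl35 at chr2:39005117-39005146 (minus strand), Rps28 at chr17:33824548-33824577 (minus) and Rps3a1 at chr3:86142654-86142683 (minus). CTTTC, in capitals, stood in that of Rpl35 and was not found in the other two. The windows of the paralogue pair members Rps27 at chr3:90213634-90213663 (minus) and Rpl39l at chr16:10170213-10170242 (plus) are added as examples picked because they hold CTTTC.
Rpl35: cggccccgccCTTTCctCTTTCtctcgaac
Rps28: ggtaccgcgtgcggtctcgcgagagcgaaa
Rps3a1: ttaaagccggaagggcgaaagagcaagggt
Rps27: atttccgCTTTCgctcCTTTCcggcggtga
Rpl39l: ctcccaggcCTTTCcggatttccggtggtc

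Many members have near-identical processed copies, and the Rps3a family is the clearest case in these tables. Rps3a1, which encodes a protein of the small subunit, lies at chr3:86137940-86142702 (minus strand, GRCm38, GENCODE vM21). Rps3a3, annotated as a processed pseudogene, lies at chr13:108670603-108671397 (plus strand). The 795 bases of Rps3a3 align to the Rps3a1 transcript with 9 mismatches and no gap (98.9% identity). Counted from 1 at the 5′ end of the Rps3a1 transcript, with the base of Rps3a1 first, these are T349C, T393C, C496T, A560T, T667C, G715T, A793G, C895T and G925A. The longest identical run is 215 bases, and 25.6% of all windows of 75 bases in Rps3a1 also occur in Rps3a3. The stretch from position 334 to 393 of Rps3a1 and its counterpart from 201 to 260 of Rps3a3 are shown with the differing bases in capitals, since a read could be placed by them.
Rps3a1: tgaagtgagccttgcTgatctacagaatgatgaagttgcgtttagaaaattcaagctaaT
Rps3a3: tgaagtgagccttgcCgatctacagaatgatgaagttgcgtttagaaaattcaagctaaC

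Rps3a2 is a second processed pseudogene with 4 mismatches to Rps3a1 (99.5% identity). The part of the transcript whose 75-base windows occur in no other gene was read for the members. Among the 85 with at least 200 UMIs it reached from 1.48% for Rps27 to 100% for Rps3 and Rpl39l, among others. How reads that match several genes were counted is not given in the sources used here, so levels of members with few unique windows are uncertain. The share was under 50% for 28 of the 85 members with at least 200 UMIs, among them Rpl9 (8.73%), Rpl13 (20.4%), Rps2 (35.6%), Rpl11 (39.0%), Rps7 (41.6%), Rps27a (44.5%) and Rpl27 (48.8%), and it is given below for several others.

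The members together took 1665592 of the 22266017 wild-type UMIs, or 7.48% (7.47 to 7.49), and 1880337 of 24385649 mutant UMIs, or 7.71% (7.70 to 7.72). The Bmx-CreER Wls share was 1.03 times the wild-type share. The median cell had 6.79% of its UMIs in members in the wild-type library (interquartile range 5.27 to 8.65) and 7.31% in the mutant library (5.75 to 9.01).

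The Mpo-led cluster had the highest share of the 16 clusters in both libraries. It reached 11.3% in 498 wild-type cells and 12% in 301 mutant cells. Its median cell was at 11.3% (10.3 to 12.2) and 11.9% (10.8 to 13.1), so its lower quartile lay above the upper quartile of all cells. These cells were also deep, with medians of 7318 and 7506 UMIs. Within the cluster the share and the UMIs of a cell had a Spearman's rho of -0.01 over wild-type and 0.04 over mutant cells, and the part of depth in the difference between clusters was not tested. At a clustering resolution of 1.0 an Ermap-led erythroid-like cluster separated with 11.9% and 12.5%. In the wild-type cells whose labels are listed by the study, erythroid cells were at 12% (65 cells), megakaryocyte progenitors at 11.2% (89), myeloid progenitors at 10.5% (144) and multipotent HSPCs at 10.3% (173), whereas cells listed as neutrophil progenitors were at 7.0% (139). The last group carried 43642 CPM of a list of osteoclast markers, against 18.6 to 1589 CPM in the other 3 HSPC subsets. Its level of neutrophil markers was below that of each of these 3, which held 184 to 3645 CPM. It had 479 CPM of HSPC markers, against 1998 to 2364 CPM. These markers go against its label, so its 7.0% is not taken as the share of neutrophil progenitors. The part of the osteoclast markers in its lower share was not tested.

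Osteoclast-like cells followed in the mutant library with 8.61%, and were at 7.48% in the wild-type library. Their cells spread widely, from 6.60% to 9.56% between the quartiles in the wild-type and from 6.76% to 11% in the mutant library. Within this cluster the share and the mitochondrial share of a cell had a rho of -0.56 over 168 wild-type cells and -0.67 over 108 mutant cells; both shares have the same total of UMIs beneath them.

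Mesenchymal and vascular clusters lay below the Mpo-led cluster. EC-like cells were at 7.59% and 7.75%, osteolineage-like cells at 7.42% and 8.0%, Epyc-led chondrocyte-like cells at 7.61% and 7.65%, and stromal-like cells at 5.73% and 6.54%. Mural-like cells, which wrap vessels, were at 5.42% and 6.29%. The lowest share was that of the Hbegf-led cluster, at 4.65% in 137 wild-type and 4.84% in 134 mutant cells. The medians of these cells were 3041 and 3398 UMIs, and the part of depth was not tested here either. Their median cells, at 4.56% and 4.57%, were under the lower quartile of all cells. The order of the extremes was thus the same in both libraries, with the Mpo-led cluster highest and the Hbegf-led cluster lowest.

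**Figure D1:**
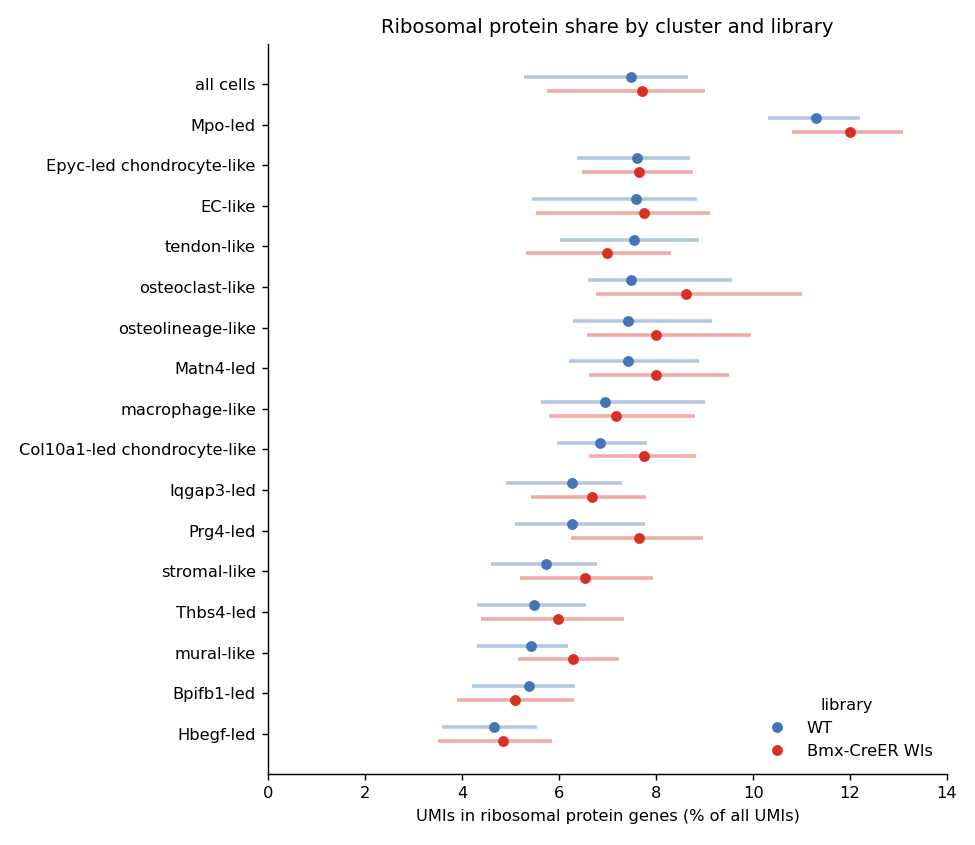
Share of UMIs in the 89 ribosomal protein genes (percent, horizontal axis) in each of the 16 clusters and in all cells, for the WT and the Bmx-CreER Wls library. Points are pooled shares and bars the interquartile range over cells; the Mpo-led cluster stands apart at 11.3% and 12%, and the Hbegf-led cluster is lowest at 4.65% and 4.84%.

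Across libraries the share was higher in the Bmx-CreER Wls library in 14 of the 16 clusters, and in 21 of 23 at a clustering resolution of 1.0. Of the 14, the macrophage-like cluster (6.94% and 7.18%, 1.04) turned to 0.944 as a mean over cells, 0.919 without the highest Scrublet scores and 0.930 with cells thinned to 1000 UMIs, and the Epyc-led chondrocyte-like cluster to 0.997 as a mean over cells. The ratio of mutant to wild-type share was highest in the Prg4-led cluster, which went from 6.26% to 7.64% (1.22, 1.21 to 1.23), followed by mural-like (1.16), osteoclast-like (1.15), stromal-like (1.14) and Col10a1-led chondrocyte-like cells (1.13, from 6.85% to 7.75%). The Epyc-led chondrocyte-like cluster was within counting error of no difference (1.01, 0.999 to 1.01). The share was lower in the mutant library in the Bpifb1-led cluster, with 5.38% against 5.08% (0.943, 0.928 to 0.958), and in the tendon-like cluster, with 7.54% against 6.98% in 62 and 92 cells (0.925, 0.905 to 0.946).

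The libraries also differed in makeup. With the mutant clusters weighted by the UMIs of the wild-type clusters, the mutant share was 8.08% and the ratio 1.08. Without the Mpo-led cluster, which held 498 wild-type but 301 mutant cells, the shares were 6.71% and 7.27% (1.08). Mitochondrial genes moved the other way, from 4.96% to 4.23% of UMIs, and without mitochondrial and haemoglobin genes in the total the ratio over all cells was 1.02; their part in the result was not tested otherwise. The clusters that gave 14 of 16 are not replicates, since they share a library.

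The subunits differed. Small-subunit members took 4.03% of the wild-type and 4.33% of the mutant UMIs (1.08), and large-subunit members 3.45% and 3.38% (0.979). Within clusters the small-subunit share was higher in the mutant library in 14 of 16 and the large-subunit share in 10 of 16. The UMIs of small-subunit members were 1.17 times those of large-subunit members in the wild-type library and 1.28 times in the mutant library, a ratio of 1.10. The direction of this ratio was the same in 16 of 16 clusters. Without the 7 members past 1.5-fold described next, the values were 1.11 and 1.18 (1.06), again in 16 of 16 clusters.

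Single members were compared as CPM between the libraries, and a member was counted where it had at least 200 UMIs over both and differed by more than 1.5-fold. Over all cells this held for 7 of 85 members (8.24%) and for 8.12% of the 11181 genes so measured. Of the members 5 were higher in the mutant library, where 3.27% of all genes were, and 2 were lower, where 4.85% of all genes were. The share of members past 1.5-fold was therefore near this background, which was not matched to the members on level. Genes with few UMIs pass 1.5-fold more readily by counting error, so the shares are not strictly comparable. The median ratio was 1.01 over the members and 0.942 over all genes. With the members split at a ratio of 1, 45 lay above and 40 below.

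The 5 higher members were of both subunits. Rps28, a small-subunit gene of the Diamond-Blackfan group, was at 1153 CPM (25671 UMIs) in the wild-type and 1864 CPM (45454 UMIs) in the mutant library, a ratio of 1.62 (1.59 to 1.64). Rps29, of the same subunit and group, went from 1029 to 1561 CPM (1.52, 1.49 to 1.54). Both were higher in the mutant library in 16 of 16 clusters, by 1.28 to 1.83 and by 1.47 to 1.83. Rpl36 was at 93.1 and 143 CPM (1.54, 1.46 to 1.62; 29.1% unique windows). Rpl23a, whose protein sits at the exit of the peptide tunnel, was at 22.4 and 45.7 CPM (2.04, 1.83 to 2.27), and 17 other genes share a 75-base window with it (18.3% unique). Rps3a1 was at 349 and 718 CPM (2.06, 2.0 to 2.11). It ranged from 1.04 to 3.75 over clusters, more widely than the other 4.

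Rpl35, another large-subunit gene of the tunnel exit, was lower in the mutant library, at 868 CPM against 526 CPM (0.605, 0.592 to 0.619; 64.4% unique windows). It was lower in 16 of 16 clusters, by 0.483 to 0.747, and was among the 3 smallest ratios of 15 of them. Rps3a3 was at 387 and 230.0 CPM (0.594, 0.574 to 0.614), and also lower in 16 of 16 clusters (0.410 to 0.943). The remaining members graded into these. Rpl41, which encodes a very short protein, followed with 383 and 560.1 CPM (1.46), then Rpl26 (1.41) and Rpl38 (1.39). At the other end Rpl27 was at 263 and 182 CPM (0.691), Rpl8 at 722 and 526 CPM (0.728) and Rplp1, of the ribosomal stalk, at 3001 and 2251 CPM (0.750).

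A difference between the libraries was also seen in a member whose windows are all unique. Rps3 was at 2084 and 1709.5 CPM (0.820, 0.810 to 0.831), lower in 15. The 28 members with under 50% unique windows had a median ratio of 1.09 (0.691 to 2.06), and the 57 others 0.981 (0.594 to 1.62). By transcript length, the 10 members under 500 bases had a median of 1.20, the 45 from 500 to under 1000 bases 1.0 and the 30 longer ones 0.979, with a rho of -0.24 between length and ratio over 85 members that share both libraries. Read length and fragment size were not compared between the libraries.

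**Figure D2:**
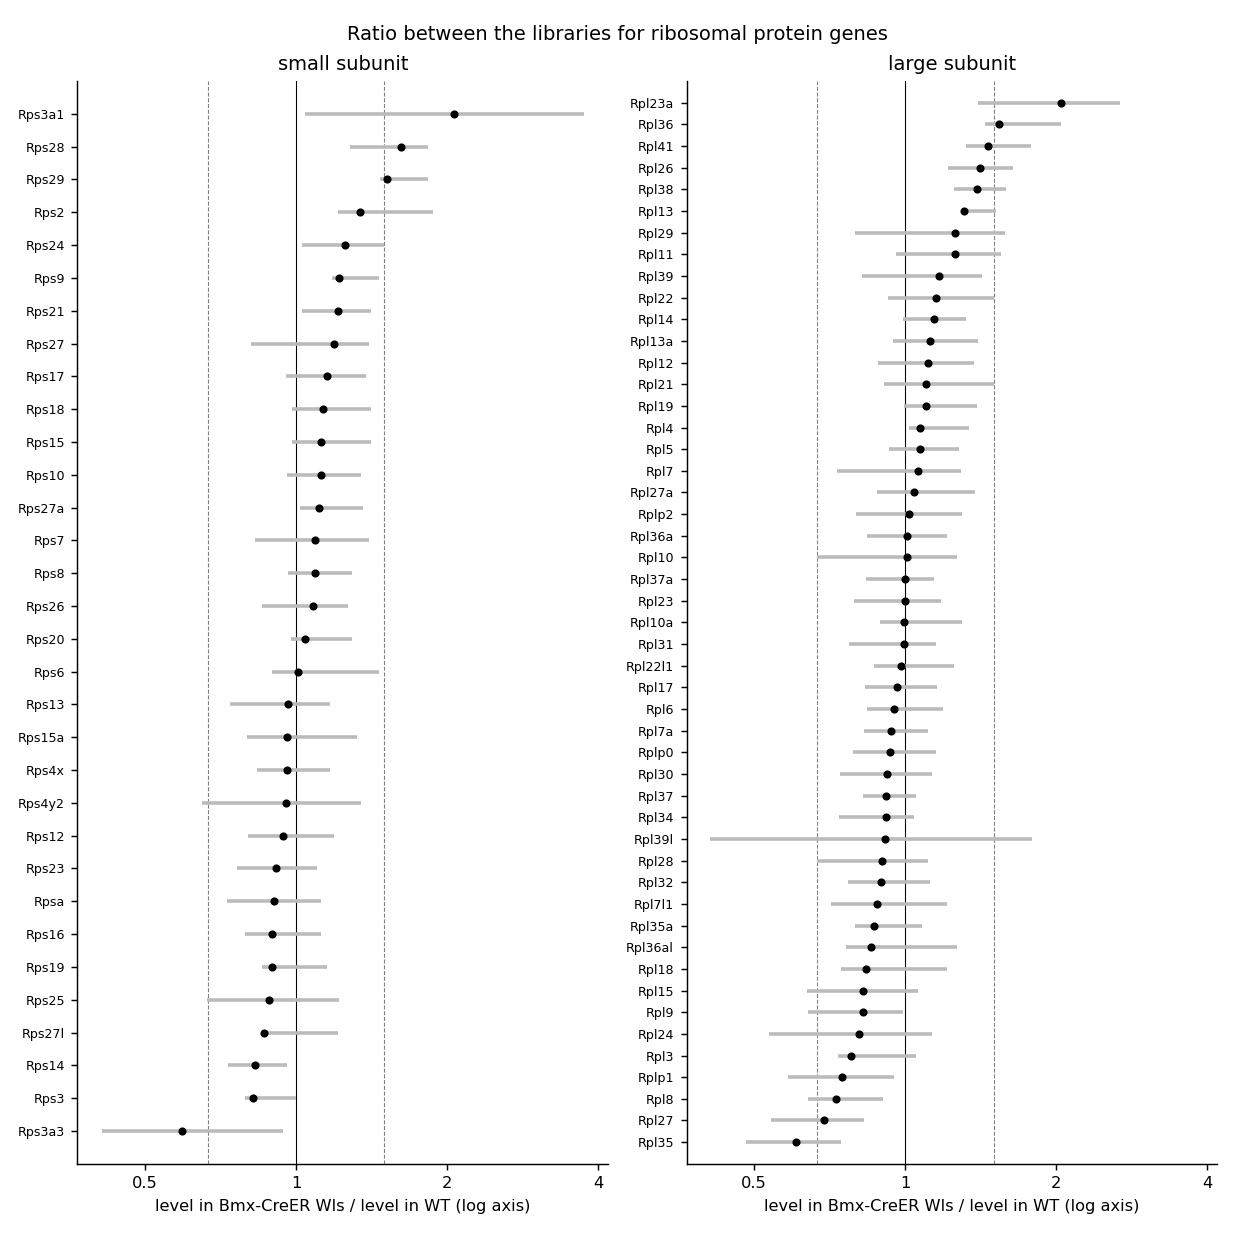
Ratio of the level in the Bmx-CreER Wls library to that in the WT library (log axis) for the small-subunit (left) and large-subunit genes (right) with at least 200 UMIs, a few of which are not shown, in order of the ratio over all cells (dots). Grey bars give the range over clusters with at least 50 UMIs and dashed lines mark 1.5-fold; Rps3a1 and Rpl23a are highest at 2.06 and 2.04, and Rps3a3 and Rpl35 lowest at 0.594 and 0.605.

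Most members did not keep 1 direction over all clusters. Of the 73 members with at least 50 UMIs in each of the 16 clusters, 15 were higher in the mutant library in all of them and 8 were lower in all of them, while 50 lay on both sides. The same count was not made over all genes. Whether members keep 1 direction more often than other genes is therefore not known. Among the 15 were Rpl13, Rpl26, Rpl38, Rpl4, Rpl41, Rps2, Rps21, Rps24, Rps27a, Rps28, Rps29, Rps3a1 and Rps9. Among the 8 were Rpl27, Rpl35, Rpl8, Rpl9, Rplp1, Rps14 and Rps3a3. With TMM scaling the counts were 19 and 4, and per UMI of all members 15 and 19. Under all 3 scalings 13 remained higher, which are the 15 without Rpl4 and Rps27a, and 4 lower, namely Rpl27, Rpl35, Rpl8 and Rps3a3. Every cluster is cut from the same pair of libraries, so this repeats a library difference and is no replication of it.

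Within single clusters the share of members past 1.5-fold in either direction was above the background of all genes in 12 clusters and below it in 4. This depended on the least number of UMIs. With at least 50 UMIs it was below the background in the Iqgap3-led (9.52%, background 9.84%), EC-like (7.23%, 7.29%) and Mpo-led clusters (7.14%, 7.87%). The same held for the Thbs4-led (11.9%, 13.3%), Hbegf-led (5.06%, 11.6%) and mural-like clusters (8.86%, 13.9%). The others of the 12 stayed above it. The values that follow are for at least 200 UMIs. In the osteoclast-like cluster 10 members differed (12.8%, background 4.18%), all of them higher in the mutant library, where 2.67% of all genes were. With at least 1000 UMIs and under 10% mitochondrial UMIs per cell it was 5 (6.49%, background 4.10%), of which Rps28, Rps29 and Rps3a1 were among the 10. In the Prg4-led cluster 9 were higher, where 3.09% of all genes were, and Rps3a3 was lower (12.7% in either direction, background 6.14%). Stromal-like cells and the Matn4-led cluster each had 7 higher and 2 lower members (11.2% each, backgrounds 5.79% and 3.29%), the same in both: Rpl26, Rpl36, Rpl41, Rps2, Rps28, Rps29 and Rps3a1 were higher and Rpl35 and Rps3a3 lower. EC-like cells, the class to which arterial ECs belong, had 4 higher and 1 lower (6.33%, background 2.20%), namely Rpl41, Rps28, Rps29 and Rps3a1 against Rpl35. In the Mpo-led cluster Rpl23a, Rpl36, Rpl38, Rps28 and Rps29 were higher and Rpl35 lower (7.23%, background 3.64%). The share was 10.1% in osteolineage-like cells (background 3.94%), 9.76% in Col10a1-led chondrocyte-like cells (4.92%), 9.23% in mural-like cells (7.32%), 8.86% in the Iqgap3-led (3.86%), 8.11% in the Thbs4-led (6.43%) and 4.84% in the Hbegf-led cluster (4.40%).

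The 4 clusters below the background were the Epyc-led chondrocyte-like cluster with 2 higher and 2 lower members (5.0%, background 5.86%), the Bpifb1-led cluster with 3 and 2 (6.94%, 10.2%), the macrophage-like cluster with 2 and 0 (5.13%, 16.6%) and the tendon-like cluster. In the last 0 members were higher and 4 lower, namely Rpl35, Rpl8, Rpl9 and Rplp1 (7.02%, background 13%). The same few members led the lists. Rps3a1 was among the 3 largest ratios in 12 clusters, Rps29 in 10 and Rps28 in 9.

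The 16 Diamond-Blackfan members took 1.35% of UMIs in the wild-type and 1.59% in the mutant library (1.18). Their median ratio was 1.10, beside 1.01 for all members and 0.942 for all genes. Of the 16, Rps28 and Rps29 were past 1.5-fold higher, where 3.27% of all genes were, and 0 were past it lower, where 4.85% were. The list is partial: Rpl35 (0.605), Rpl18 (0.835) and Rps15a (0.959), also linked to the disease, are not on it. With them, 19 members took 1.52% and 1.72% (1.13), their median ratio was 1.08, and 2 were past 1.5-fold higher and 1 lower. In the Mpo-led cluster the list took 1.87% and 2.28% (1.22), and in the Prg4-led cluster 1.18% and 1.6% (1.36). Rps19, the member mutated most often in the disease, was at 408 and 366 CPM (0.896, 0.871 to 0.923). Rpl11 and Rpl5, whose free proteins bind Mdm2, were at 344 and 433 CPM (1.26) and at 549 and 587 CPM (1.07). Rps14, the gene lost in the 5q- syndrome, was at 2141 and 1771 CPM (0.827, 0.816 to 0.838) and lower in 16 of 16 clusters.

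Further lists hold genes that work with or build ribosomes. The 20 translation genes with a TOP start or a place on the ribosome took 1.28% and 1.20% (0.943), with 0 of 19 measured members past 1.5-fold, where 8.12% of all genes were. Among them Eef1a1, an elongation factor, was at 762 and 523 CPM (0.686), and Gas5, a non-coding host of small nucleolar RNAs with a TOP start, at 456 and 615 CPM (1.35). Of the 27 genes of ribosome biogenesis, 4 were past 1.5-fold lower (background 4.85%) and 0 higher (background 3.27%). The 4 were Polr1b (0.597), Wdr12 (0.664), Ddx21 (0.617) and Myc (0.576), and the list took 0.430% and 0.340% (0.790). In the Mpo-led cluster it took 1.25% and 1.14% (0.910) with 0 of 26 past 1.5-fold (background 3.64%). Within single clusters the ratio of this list ran from 0.877 in macrophage-like cells to 1.15 in the Thbs4-led and osteoclast-like clusters. It was above the 0.790 over all cells in every cluster. The Mpo-led cluster held 498 wild-type and 301 mutant cells, and the part of this makeup in the value over all cells was not tested. The 76 genes of the mitochondrial ribosome (0.343% and 0.311%, 71 measured) and the 10 p53 targets (0.0423% and 0.0403%, 9 measured) had 0 past 1.5-fold, beside the same 8.12% of all genes. For the mitochondrial ribosome the ratio was 0.908 over all cells. Within clusters the mutant share was lower only in the Bpifb1-led (0.961) and Mpo-led (0.968) clusters. The Epyc-led chondrocyte-like cluster had about the same share in both libraries. In every other cluster the mutant share was higher, up to 1.10 times in the osteoclast-like and Hbegf-led clusters. The part of makeup in the lower value over all cells was not tested here either.

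The makeup of the ribosomal protein messages differed between cell types beyond their total. In the wild-type library 66 of 85 members were more than 1.5-fold higher in the Mpo-led cluster than in the named cells, where 41.1% of all genes were, and 1 was lower, where 28.9% of all genes were. The median member was 1.67 times the level in named cells and the median gene 1.25 times. In the mutant library 59 were higher (background 40.5%) and 1 lower (28.5%), with medians of 1.63 and 1.26. The members did not move as a block. Rpl24 (19.1% unique windows) was at 90.1 CPM in the wild-type Mpo-led cluster and 2.57 times the level in named cells (2.23 to 2.97), and 2.50 times in the mutant library. Rpl27 was 2.18 times in each, and Rps27l, a paralogue of Rps27 known as a p53 target, 2.17 and 2.0 times. Rps28, by contrast, was 1.17 and 1.23 times. Rps4y2, a copy of Rps4x annotated as a transcribed processed pseudogene, was 0.799 and 0.800 times. These ratios of CPM include the higher total of the cluster. With each member divided by the sum of all members, Rpl24 was 1.57 times in each library and Rpl27 1.33 and 1.37 times. Rps27l was then 1.32 and 1.26, Rps28 0.713 and 0.769, and Rps4y2 0.488 and 0.502 times. The member that was lower in both libraries was Rpl39l.

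**Figure D3:**
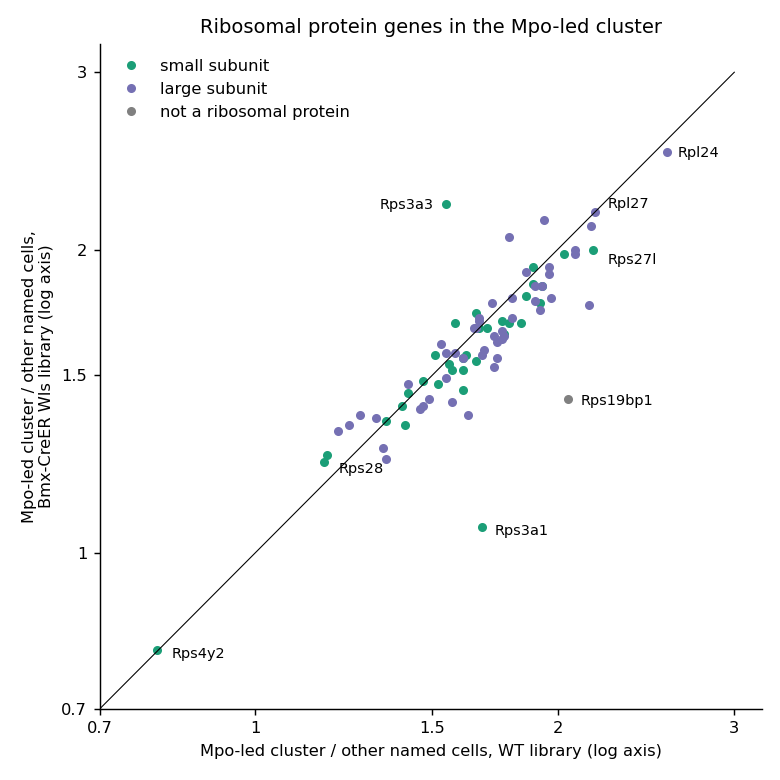
Level of each member in the Mpo-led cluster divided by that in the named cells, in the WT library (horizontal, log axis) and the Bmx-CreER Wls library (vertical, log axis), with the line of equal ratios. Rpl39l, at 0.0323 and 0.0427, lies outside the plotted range. Rpl24 is highest at 2.57 and 2.50, and Rps3a1, Rps19bp1 and Rps3a3 are among the members far from the line.

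How far a cluster's profile within the members repeated between the libraries varied. With each member divided by the sum of all members, the ratio of cluster to named cells had a Spearman's rho between the libraries of 0.84 in the Mpo-led (84 members), EC-like (82) and osteoclast-like (82) clusters, 0.70 in osteolineage-like cells, and 0.34 in the tendon-like cluster (64). The counts and ratios that follow are of CPM, not divided by the sum of all members. In EC-like cells 0 members were past 1.5-fold higher in either library, where 24.7% and 25.7% of all genes were. Among their highest members were Rps7 (1.42 and 1.25) and Rpl24 (1.42 and 1.25). Osteoclast-like cells had 3 members higher in the wild-type (background 26.7%) and 6 in the mutant library (27.8%). The 3 were Rpl36al (1.76 and 1.58), Rps4y2 (1.76 and 1.61) and Rps27l (1.61 and 1.71), which were also among the 6 with Rpl39l (0.933 and 1.73), Rpl19 (1.44 and 1.64) and Rps19 (1.32 and 1.59), while Rps20 was 0.765 and 0.897 times. The Hbegf-led cluster was the opposite of the Mpo-led one, with 40 of 84 members past 1.5-fold lower in the wild-type (background 25.2%) and 52 of 85 in the mutant library (24.9%), at medians of 0.672 and 0.646.

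The largest contrast between cell types was that of Rpl39l, an autosomal paralogue of the X-linked Rpl39 best known from testis, with 100% unique windows. Osteolineage-like cells were at 147 CPM (128 to 167) in the wild-type and 175 CPM (149 to 203) in the mutant library. This was 3.93 (3.33 to 4.64) and 4.35 (3.62 to 5.21) times the level in the other named cells. Tendon-like cells were at 213 CPM (151 to 292) in the wild-type and 89.1 CPM (58.2 to 130.5) in the mutant library. The intervals of osteolineage-like and wild-type tendon-like cells overlapped.

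At the other end, EC-like cells had 6.53 and 3.28 CPM of Rpl39l, the Mpo-led cluster 1.62 and 2.19 CPM from 6 and 5 UMIs, and macrophage-like cells none in 50 and 59 cells, which allows a share of cells with a UMI of up to 6.00% and 5.08%. A UMI of Rpl39l was found in 119 of 322 wild-type (37.0%) and 81 of 176 mutant osteolineage-like cells (46.0%), at medians of 4278 and 5026 UMIs per cell. In EC-like cells it was found in 2.04% and 1.29% at medians of 2969 and 3303 UMIs, and in the deeper Mpo-led cells in 0.803% and 0.997%. With each cell thinned to 1000 UMIs, 11.7% and 15.2% of osteolineage-like cells had one, against 0.350% and 0% of EC-like cells.

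Osteoclast-like cells held Rpl39l in a few cells only. Their 61 wild-type UMIs came from 7 of 168 cells, with 30 UMIs in 1 cell, and their 72 mutant UMIs from 10 of 108 cells, with up to 16 in 1 cell. In osteolineage-like cells the most in 1 cell were 7 and 9 UMIs. The pooled levels of 47.0 and 84.3 CPM in osteoclast-like cells thus rested on those cells. As part of its pair, Rpl39l made up 11.7% (10.3 to 13.2) and 11.5% (9.94 to 13.3) of Rpl39 and Rpl39l UMIs in osteolineage-like cells, and 4.09% and 3.22% over all cells.

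**Figure D4:**
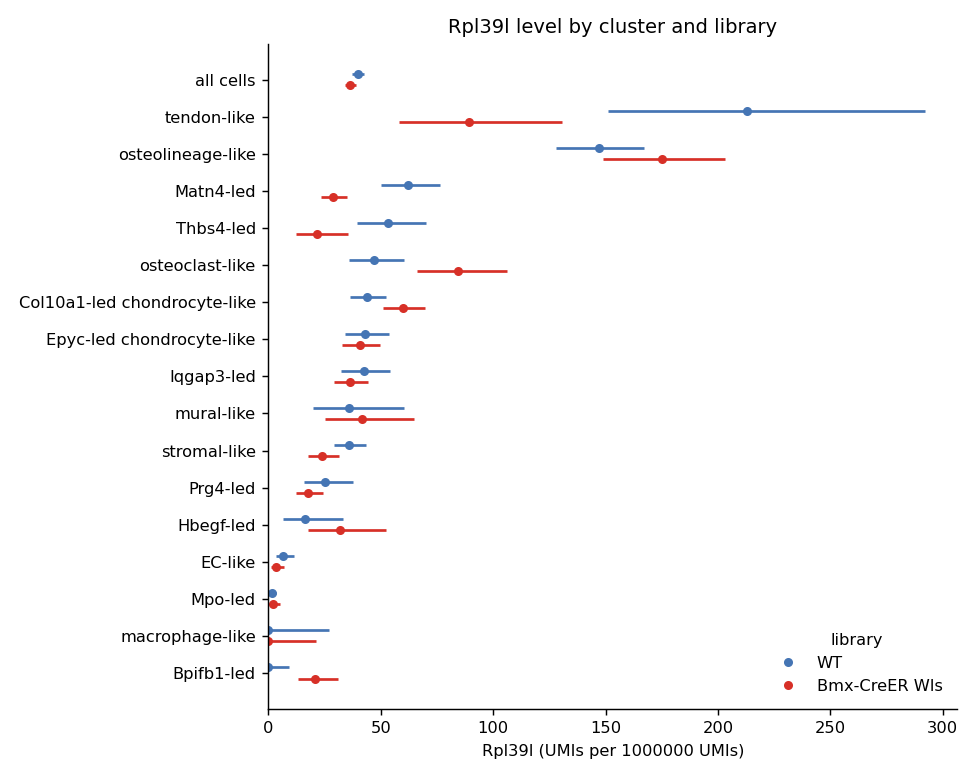
Level of Rpl39l (UMIs per 1000000, horizontal axis) in each cluster of the WT and the Bmx-CreER Wls library, with bars giving 95% counting intervals. Osteolineage-like cells (147 and 175) and tendon-like cells (213 and 89.1) lie above the other clusters, and Mpo-led, EC-like and macrophage-like cells lie at or near 0.

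Of the 8 pairs of paralogues compared, that of Rps3a1 and Rps3a3 differed most between the libraries. Rps3a3 made up 52.6% (51.8 to 53.4) of Rps3a1 and Rps3a3 UMIs in the wild-type library and 24.3% (23.7 to 24.8) in the mutant library. It was lower in the mutant library in 16 of 16 clusters. The wild-type shares reached from 35.4% in Epyc-led chondrocyte-like cells to 67.7% in the Thbs4-led cluster, and the mutant shares from 18% to 40.0%, the last in the Mpo-led cluster (51.5% in the wild-type library). The level of Rps3a1 relative to the other named cells also differed between the libraries, at 2.39 and 1.12 times in Epyc-led chondrocyte-like cells and 0.469 and 0.898 times in stromal-like cells.

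The sum of Rps3a1, Rps3a2 and Rps3a3 differed less than either copy, at 739 CPM (728 to 750.4) in the wild-type and 953 CPM (940.3 to 965) in the mutant library (1.29, 1.26 to 1.32). UMIs of both copies were found in 20% of wild-type cells (1150 cells, with 1022 holding Rps3a1 alone and 2368 Rps3a3 alone) and in 31.8% of mutant cells (2102, with 2879 and 741). Only 39.8% of the windows of Rps3a1 and 54.6% of those of Rps3a3 are unique. Whether the difference between the copies lies in the transcripts or in how reads were assigned to the copies was not tested.

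The other pairs differed by less. Rpl22l1, the paralogue of Rpl22, made up 27.9% of their UMIs in the wild-type and 24.8% in the mutant library, and was lower in the mutant library in 14 of 16 clusters. Rps27l made up 18.2% (17.7 to 18.8) and 14% (13.6 to 14.4) of Rps27 and Rps27l UMIs, and was lower in 15 of 16. Its share was highest in the Mpo-led cluster (26.4% and 20.6%) and in osteoclast-like cells (24.8% and 22.7%). Rps27l itself was at 157 and 136 CPM while Rps27, with 1.48% unique windows, was at 703 and 834 CPM. Rpl36al made up 12% and 10.4% of its pair with Rpl36a, Rpl7l1 22.3% and 19.2% with Rpl7, and Rps4y2 3.53% and 3.52% with Rps4x. Rpl3l, a form of Rpl3 known from muscle, had 2 wild-type UMIs, both in osteoclast-like cells, and too few counts for a comparison.

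**Figure D5:**
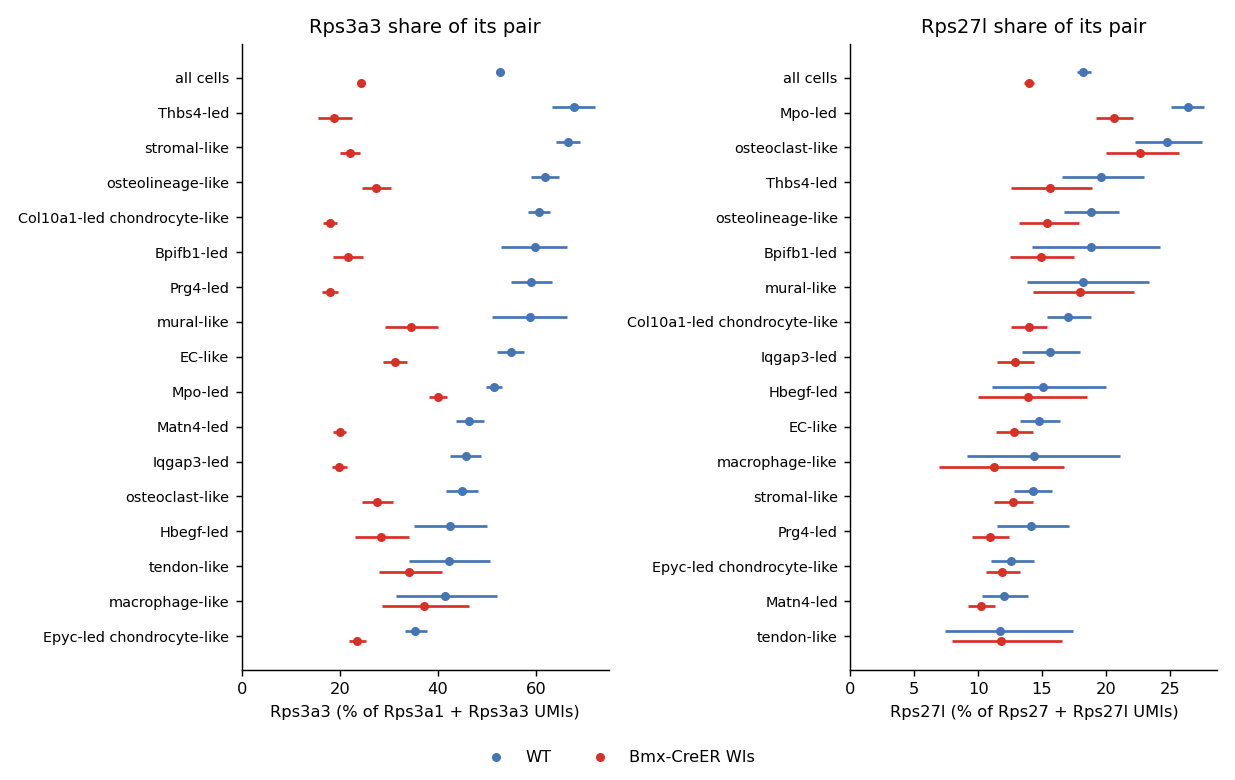
Share of Rps3a3 in the UMIs of Rps3a1 and Rps3a3 (left) and of Rps27l in those of Rps27 and Rps27l (right), in percent on the horizontal axis, by cluster for the WT and the Bmx-CreER Wls library, with bars giving 95% counting intervals. The Rps3a3 share lies between 35.4% and 67.7% in the WT clusters and between 18% and 40.0% in the Bmx-CreER Wls clusters.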

How the data were processed

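Each deposited table holds counts of UMIs by gene and cell as the authors made them, not normalized. Per the labels and the study's methods, reads were processed with bcl2fastq 2.19.1.403, UMI-tools 1.0.1, STAR 2.7.1a and featureCounts 1.6.4 (Subread) on mm10. How multimapping reads and strand were handled is not given in the sources used here.

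Cells with over 200 and under 5000 genes and under 30% mitochondrial UMIs were kept, as in the study; doublets were kept. Both libraries were clustered together in scanpy 1.11.5 (log-normalized to 10000 UMIs per cell, 2023 variable genes with members and cell cycle genes taken out, 11 principal components, 20 neighbours, Leiden resolution 0.5). A cluster was named where at least 3 markers of a fixed list were high and no other class led its 10 top genes.

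Levels are UMIs per 1000000 UMIs of a class (CPM), summed over its cells. With 1 library per group no test was run. Intervals are exact (Poisson for levels, Clopper-Pearson for shares, conditional binomial for ratios); UMIs within a cell are not independent, and cells are not replicates. A gene counted as differing past 1.5-fold with at least 200 UMIs over both libraries; TMM factors came from edgeR 4.0.16. Clusters were compared with all cells of the other named clusters. Unique windows are the 75-base windows of a member's transcript that occur in no other GENCODE gene; 88 members had an entry. Promoter windows are RefSeq's.

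Named members were those of paralogue pairs, the Diamond-Blackfan genes and Rps14, and per cluster the 3 largest and 3 smallest ratios; Rps3 and the members listed by direction in all clusters were picked after their values were seen, as were the 6 added alternatives. The members and lists were chosen with earlier results of these data known. Rps4y2 is the symbol in the tables for the gene that GENCODE calls Rps4l. The labels of listed wild-type cells are the study's. The scripts were tested on simulated data. Some members are not reported by name here.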

Additional observations from a re-analysis of the deposited data

Results flagged for a closer look

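The share of UMIs in ribosomal protein genes was lower in the Bmx-CreER Wls library in the Bpifb1-led cluster (ratio 0.943) and in the tendon-like cluster (ratio 0.925), against a higher share in the other 14 clusters. These opposite directions are what drew attention to them, and the difference between clusters was not tested. The Bpifb1-led cluster held 155 wild-type and 332 mutant cells at medians of 2350.0 and 3096 UMIs, and the tendon-like cluster 62 and 92 cells.

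Ribosomal protein symbols with -ps, which lie outside the members, took 0.231% of the wild-type UMIs and 0.273% of the mutant UMIs, far above the limit that 3 counts would set. Of 204 such symbols 195 were detected in each library. Rpl10-ps3 had 3796 and 7237 UMIs (ratio of levels 1.74), Rpl13a-ps1 547 and 1250 (2.09) and Rps13-ps1 12459 and 12791 (0.937).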

How the results depend on the processing

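No paired analysis was possible because each group has 1 library. The direction of the share ratio over all cells held under every alternative run, at 1.05 as the mean over cells, 1.02 without mitochondrial and haemoglobin genes, 1.03 with at least 1000 UMIs and under 10% mitochondrial UMIs, and 1.05 with cells thinned to 1000 UMIs. Of the alternatives chosen after the data were seen, it was 1.08 without the Mpo-led cluster, 1.04 without the Bpifb1-led and tendon-like clusters, 1.03 without the Rps3a genes and 1.08 with wild-type weights. In the Mpo-led cluster the ratio was 1.05 as the mean over cells, 1.13 with each library clustered on its own and 1.08 at resolution 1.0. The wild-type and mutant shares over all cells were 7.11% and 7.45% as means over cells, 7.87% and 8.05% without mitochondrial and haemoglobin genes, 7.55% and 7.77% under the stricter filter, 7.71% and 7.98% with -ps symbols and 7.37% and 7.66% without a filter. The wild-type share of the Mpo-led cluster was 11.9% without mitochondrial and haemoglobin genes, 11.4% without the top 5% of Scrublet scores, 11.7% with -ps symbols, 10.6% clustered on its own, 10.8% at resolution 1.0 and 9.39% in the listed HSPCs. The mutant share was 11.9% as the mean over cells, 12.6%, 12% and 12.4% under the first 3 of these, and 11.6% at resolution 1.0. The 185 listed wild-type HSPCs carried 14936 CPM of the list of osteoclast markers, and the part of this in their share was not tested. Under other clusterings the share values were computed for the Mpo-led cluster, and at resolution 1.0 also the count of clusters with a higher mutant share (21 of 23). The Rps3a3 share as a mean over cells was 64.4% and 27.3%.

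Ratios turned below 1 in Epyc-led chondrocyte-like cells (0.997, mean over cells), in macrophage-like cells (0.944 as the mean over cells, 0.919 without top Scrublet scores, 0.930 thinned) and for Rplp2 per UMI of members (0.987). Clusters with a higher mutant share numbered 12 to 14 of 16. With TMM 6 members were higher and 2 lower over all cells, which adds Rpl41 to the 5 higher, and with at least 50 UMIs 6 and 2, which adds Rps3a2. In either direction this was 9.41% with TMM (background 7.94%) and 9.30% with at least 50 UMIs (background 11.6%). TMM moved the log2 median ratio of all genes from -0.09 to -0.01. In the Prg4-led cluster 17 members were higher with TMM (4.47% of all genes) against 9 (3.09% of all genes). In osteoclast-like cells 5 were higher under the stricter filter (2.28% of all genes) against 10 (2.67% of all genes). Macrophage-like cells had 5 higher with TMM (12.8% of members, background 19.0%) and 4 under the stricter filter (10.3%, 16.8%) against 2 (5.13%, 16.6%). The Thbs4-led cluster had 10 past 1.5-fold with at least 50 UMIs (11.9%, background 13.3%) against 6 (8.11%, 6.43%). TMM gave 3 higher and 1 lower in Epyc-led chondrocyte-like cells, 6 and 1 in the Iqgap3-led and 2 and 4 in the tendon-like cluster, against 2 and 2, 5 and 2, and 0 and 4. The causes were not tested.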
